A study of Mus musculus with 21 samples.

Results

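The 50 genes described here encode proteins that copy DNA and take a cell from G1 into S phase, and they were matched by name in a mouse count table of 47643 genes. They were chosen as a module by their known roles, with earlier results of these data known, and fall into 8 roles from origin licensing to the G1 to S regulators. All 50 had at least 10 counts over the 21 libraries, so that none was lost to the filter on low counts, which 15300 genes of the table passed.

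DNA replication begins when the origin recognition complex, Cdc6 and Cdt1 load the ring of Mcm2 to Mcm7 onto DNA in G1, a step called licensing. Kinases then turn the loaded ring into an active helicase by joining Cdc45 and the GINS complex to it, and polymerases, a sliding clamp and its loaders copy both strands behind the fork. Cyclin E and the E2F factors switch many of these genes on as cells leave G1. Resting CD4+ T cells sit in G0 and re-enter the cell cycle only after their receptor has met antigen.

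Transcriptomes were measured by 3' mRNA sequencing in splenic CD4+ T cells of Tg4 Nr4a3-Tocky Il10-GFP mice, with 3 libraries in each of 7 groups. All groups share 3 genetic elements: the Tg4 T cell receptor transgene, which recognises myelin basic protein (MBP), the Nr4a3-Tocky reporter, whose Timer protein fluoresces blue when new and red when mature, and the Il10-GFP reporter. Mice of 6 groups received [4Y] MBP peptide under the skin, at 0.8 µg or 80 µg, and were sampled 4 h, 12 h or 24 h later. The control group has no dose or time in its labels, and the study calls it non-activated. The comparisons ask how the amount of antigen and the time since antigen shape the response. Per the study, sorting followed the maturation of the Timer protein, with Blue+Red- cells taken at 4 h, Blue+Red+ cells at 12 h and Blue-Red+ cells at 24 h. Time and sorting gate therefore cannot be told apart. The study's methods state no gate for the control, so that comparisons with it may also differ in gate. Cells for sorting came from biological replicate mice. Male and female mice were used in the study, and their age is not given in the sources used here.

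Library totals ran from 2352800 to 6244279 counts. The summed level of 8 CD4 T cell markers was 10803 to 11615 normalised counts in the control libraries, 4509 to 7676 at 4 h and 12 h, and 10322 to 12726 at 24 h. Of the other lists, 6 B cell genes summed to 136 to 324 in the control and to 7.78 to 159 in the immunised libraries, and 7 erythroid genes to 19.7 to 784 over all libraries with Klf1 at 0 throughout. The CD8 T cell, plasma cell, myeloid, dendritic and NK lists summed to at most 181, 198, 141, 8.25 and 18.5 in any library. Their part in the results was not tested. By chi-square per degree of freedom over genes, replicate 3 of the 0.8 µg group at 12 h stood farthest from its group, differing from replicates 1 and 2 by 14.8 and 14.4, where those replicates differed from each other by 3.35. Replicate 2 of the 80 µg group at 12 h differed from replicates 1 and 3 by 8.70 and 9.49, where those differed by 4.87, and replicate 3 of the 0.8 µg group at 24 h from replicates 1 and 2 by 6.78 and 7.84, where those differed by 4.25. Counts of calls and medians over the 50 genes are also given without these libraries.

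Promoter windows from RefSeq (GRCm38.p6, 250 bases before to 50 bases after each start) were found for 39 of the 50 genes, and are shown because E2F factors act on genes of this kind. The windows were searched on both strands for 4 letter forms of the E2F site, TTTCCCGC, TTTGGCGC, TTTCGCGC and TTTGCCGC, and overlapping matches were counted separately. At least 1 form was present in 16 of the 39 genes (41.0%), against 704 of 27025 genes with a window (2.61%) and 464 of the 9873 other genes measured here (4.70%). The 22 matches lay between positions -165 and 40, where the start is 1, and 15 of them lay within 50 bases of the start. Licensing genes held a match in 3 of 4, Mcm2 to Mcm7 in 4 of 5, and polymerase and primase genes in 4 of 7. The helicase activators, the clamp and loader genes, the single strand binding and Okazaki genes and the fork protection genes each held one in 1 of 5, and the G1 to S regulators in 1 of 3. The window of Mcm6 (chr1:128359656-128359955, minus strand) and that of Cdc6 (chr11:98907901-98908200, plus strand) read, 5' to 3' along each gene with the E2F letters in capitals:
Mcm6: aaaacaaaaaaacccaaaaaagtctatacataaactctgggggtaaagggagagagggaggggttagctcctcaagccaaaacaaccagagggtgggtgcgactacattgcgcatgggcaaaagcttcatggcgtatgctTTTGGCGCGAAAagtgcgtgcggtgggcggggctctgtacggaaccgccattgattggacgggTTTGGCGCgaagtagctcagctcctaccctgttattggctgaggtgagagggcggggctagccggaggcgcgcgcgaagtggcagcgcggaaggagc
Cdc6: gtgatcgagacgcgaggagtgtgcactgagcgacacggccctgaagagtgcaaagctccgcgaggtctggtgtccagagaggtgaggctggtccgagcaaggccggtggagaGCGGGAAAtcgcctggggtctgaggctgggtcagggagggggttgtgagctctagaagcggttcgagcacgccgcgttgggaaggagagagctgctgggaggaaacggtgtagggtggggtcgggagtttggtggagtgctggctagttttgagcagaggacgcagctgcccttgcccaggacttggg
In Mcm6 a forward match at -110 and a reverse match at -106 overlap, and a further forward match lies at -47. In Cdc6 the reverse match lies at -138.

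For the genes whose values are given below in each library, the match is shown with up to 10 bases on either side, again along the gene. These 6 genes are each of a different role and differ in how they responded, so that the letters can be set beside the values.
Cdt1: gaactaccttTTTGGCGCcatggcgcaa
Mcm7: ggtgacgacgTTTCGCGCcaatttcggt
Pola1: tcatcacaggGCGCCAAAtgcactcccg
Lig1: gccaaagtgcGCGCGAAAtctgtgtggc
Clspn: ccgcgtctggGCGCGAAAgctcgaactt
E2f2: cggcatatagTTTGGCGCtaa
For Mcm7 this is 1 of its 2 matches. The windows lie at chr8:122567765-122568064 for Cdt1 (plus strand), chr5:138171834-138172133 for Mcm7 (minus), chrX:93632106-93632405 for Pola1 (minus), chr7:13278576-13278875 for Lig1 (plus), chr4:126556730-126557029 for Clspn (plus) and chr4:136172024-136172323 for E2f2 (plus). Among the 6 genes with a window that were called between doses at 12 h, 3 held a match, and 13 of the other 33 did. Other letters were nearer to their share of all genes with a window: the CCAAT box (CCAAT) was found in 22 of 39 (56.4%, all genes 41.1%), the cell cycle homology region (TTTGAA) in 8 (20.5%, all genes 20.2%) and the E-box (CACGTG) in 6 (15.4%, all genes 8.09%). Gmnn, Mcm4, Gins1, Gins2, Gins4, Rfc2, Dscc1, Prim2, Pole, Tipin and Ccne2 had no entry in the table.

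**Figure D1:**
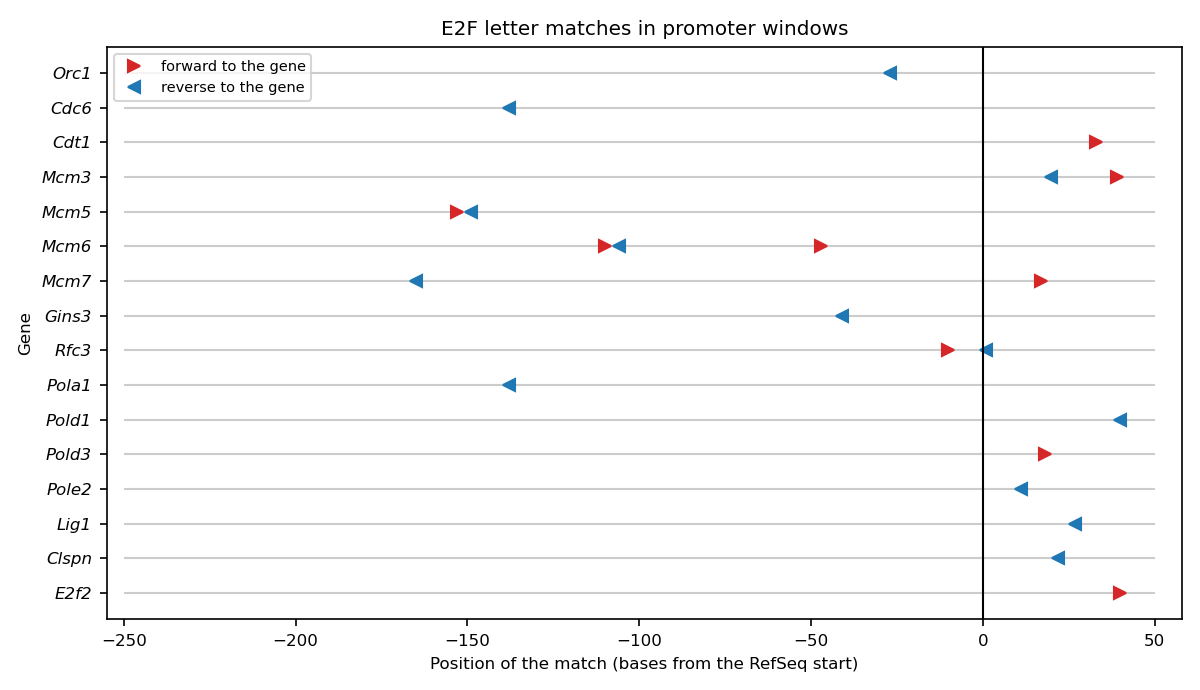
Position of each E2F letter match (triangles, pointing with the strand of the letters) in bases from the RefSeq start (vertical line), for the 16 replication genes that hold one. The 22 matches run from -165 to 40, and 15 lie within 50 bases of the start.

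The replication genes took a larger share of the library at 12 h and 24 h than in the control and at 4 h. They made up 0.109% ± 0.00662 of counts in the control (SD, n = 3), 0.0990% ± 0.00129 at 4 h after 0.8 µg and 0.103% ± 0.00590 after 80 µg. At 12 h the share was 0.439% ± 0.0166 after 0.8 µg and 0.559% ± 0.0121 after 80 µg. At 24 h it was 0.634% ± 0.0892 and 0.713% ± 0.0289. Every 12 h library lay above every control and 4 h library, and the doses did not overlap at 12 h. At 24 h they overlapped, also without replicate 3 of the 0.8 µg group, and that library was the lowest, at 0.532% (95% Wilson interval 0.524 to 0.540%, counting error only). A single RNA, Gm42418, took 24.0 to 24.7% of counts in the control libraries, 18.1 to 22.8% at 4 h, 17.0 to 25.7% at 12 h and 23.3 to 27.8% at 24 h, and its part in these shares was looked at by leaving its counts out. The share of the 50 genes was then 0.121 to 0.134% in the 4 h libraries, below the 0.138 to 0.155% of the control, and the doses were apart at 12 h and also at 24 h (0.694 to 0.932% after 0.8 µg and 0.941 to 0.990% after 80 µg). In replicate 3 of the 0.8 µg group at 12 h Gm42418 took 25.7%, against 17.0% and 18.2% in replicates 1 and 2. In these bulk samples, more cells with a transcript and more transcript per cell cannot be told apart.

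**Figure D2:**
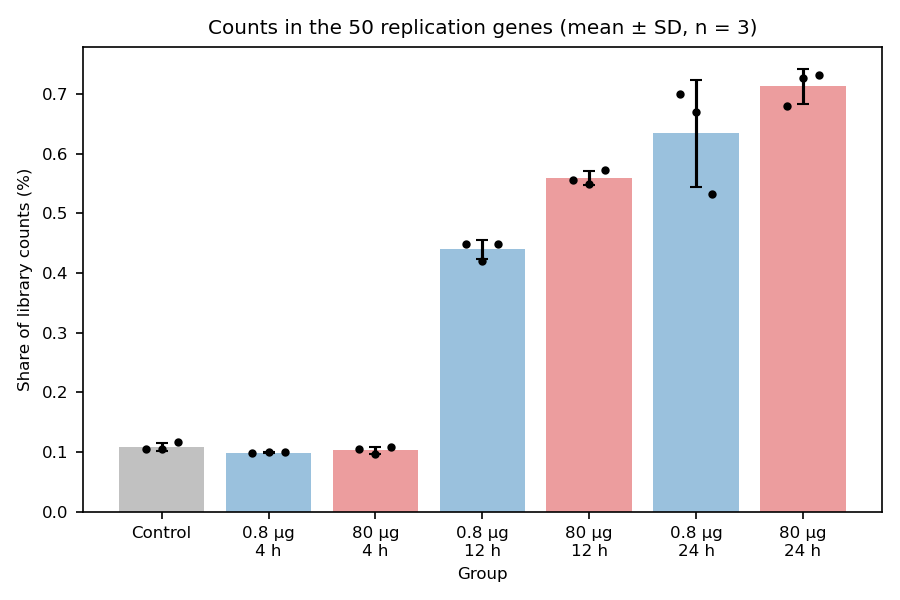
Share of library counts (%) taken by the 50 replication genes: bars are group means, whiskers the SD (n = 3) and points the libraries. The control and 4 h groups lie near 0.1%, the 12 h groups at 0.439% and 0.559% and the 24 h groups at 0.634% and 0.713%.

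Comparisons of the immunised groups with the control used the Wald test of DESeq2, and a gene was called when its adjusted p was under 0.05 and its shrunken log2 fold change beyond 1 in size. The 6 comparisons share the 3 control libraries. After 0.8 µg, 7 of the 50 rose at 4 h (17.3% of all genes tested were called higher) and 10 fell (23.4% of all genes). At 12 h 38 rose (17.2% of all genes) and 1, E2f2, fell (20.5%). At 24 h 49 rose (11.5% of all genes), and the exception was Rpa1, with a log2 fold change of 0.68. After 80 µg, 10 rose (18.4% of all genes) and 12 fell (25.1%) at 4 h, 44 rose at 12 h (17.8%) and all 50 rose at 24 h (12.3%). Scaling by library totals gave 4 higher (14.8% of all genes) and 12 lower (25.9%) at 4 h after 0.8 µg, and 7 higher (15.8%) and 14 lower (27.6%) after 80 µg. The median log2 fold change from control over the 50 genes was -0.07, 2.10 and 2.58 at 4 h, 12 h and 24 h after 0.8 µg, where the median of all genes was -0.13, -0.11 and 0. After 80 µg it was 0.12, 2.65 and 2.97, where all genes gave -0.15, -0.11 and -0.00320. With library totals the medians of the 50 at 4 h were -0.21 after 0.8 µg and -0.04 after 80 µg, and those of all genes -0.27 and -0.30. Without replicate 3 of the 0.8 µg group at 12 h, 38 rose (17.3% of all genes) and 1 fell (20.2%) at that time, with a median of 1.93. Without replicate 2 of the 80 µg group at 12 h 45 rose (17.6%), with a median of 2.63, and without replicate 3 of the 0.8 µg group at 24 h 49 rose (11.9%), with a median of 2.72. In all, 38 of the 50 were called higher at 12 h and 24 h at both doses (5.90% of all genes tested in all 4 comparisons), and 49 were so at 24 h at both (9.48%). The shares of all genes given here for each comparison with the control are also those to set beside the counts by role below.

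**Figure D3:**
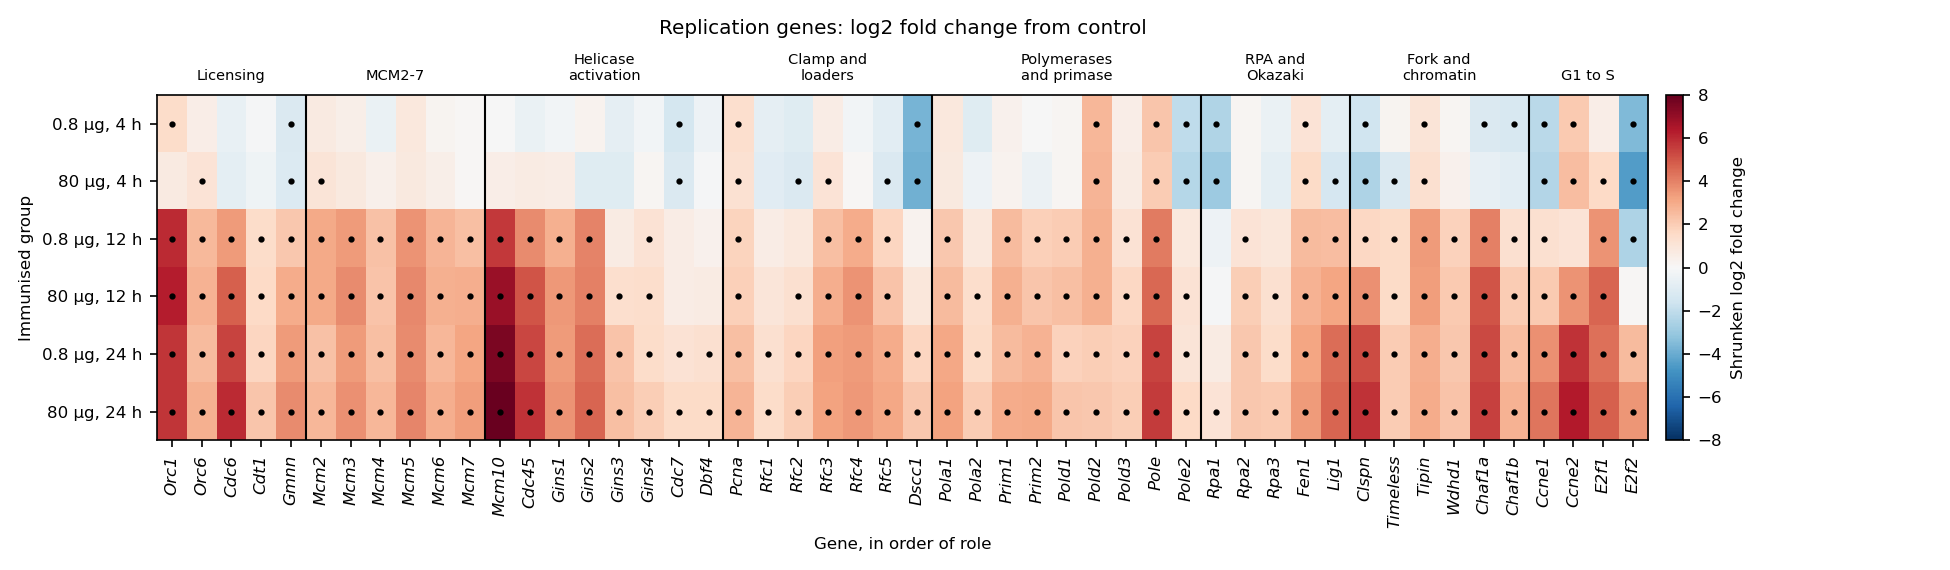
Shrunken log2 fold change from control (colour) of the 50 replication genes, in order of role, in the 6 immunised groups (rows). Dots mark calls: 7 higher and 10 lower at 4 h after 0.8 µg, 10 and 12 after 80 µg, and 49 and 50 higher at 24 h. Colours of Orc1, Mcm10, Cdc45 and Dscc1, and those of Gins2, Clspn and E2f2 at 4 h after 80 µg, rest on groups with few counts or none.

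The licensing genes (Orc1 and Orc6 of the origin recognition complex, Cdc6 and Cdt1, which load the ring, and Gmnn, the geminin that blocks Cdt1) all rose at 12 h and at 24 h at both doses. Cdt1 gave 88.6, 133 and 144 normalised counts in the control libraries, 106, 103 and 125 at 4 h after 0.8 µg, and 63.7, 103 and 111 after 80 µg. At 12 h Cdt1 stood at 322, 309 and 396 after 0.8 µg and at 370.0, 375 and 379 after 80 µg, and at 24 h at 426, 405 and 361 and at 538, 606 and 548. The 4 h libraries overlapped the control, and all 12 h and 24 h libraries lay above it. Its log2 fold change from control at 24 h was 1.70 ± 0.17 (SE, adjusted p = 1.63e-22) after 0.8 µg and 2.21 ± 0.17 (adjusted p = 2.42e-38) after 80 µg.

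Cdc6, an ATPase of the loading step, was at 5.15, 7.10 and 2.86 normalised counts in the control and at no more than 6.59 in any 4 h library. After 0.8 µg it reached 52.9, 53.4 and 93.9 at 12 h and 286, 318 and 203 at 24 h. After 80 µg it reached 180.0, 164 and 172 at 12 h and 424, 369 and 385 at 24 h. No 12 h library overlapped the control, and the doses were apart at both later times. Its log2 fold change from control was 3.42 ± 0.40 (SE) at 12 h and 5.44 ± 0.39 at 24 h after 0.8 µg, and 4.79 ± 0.39 and 5.97 ± 0.39 after 80 µg (adjusted p = 3.23e-15, 4.13e-36, 5.62e-29 and 1.31e-43). Orc1 had 1 count in total over the 3 control libraries. At 4 h after 0.8 µg Orc1 was called on 9 counts, a ratio of normalised counts of 8.93 (95% exact interval 1.24 to 392). This call was lost with scaling by library totals and with only the 6 libraries compared in the fit. It was also lost without replicate 1 or replicate 3 of the control or replicate 1 of the 0.8 µg group. Orc1 had 309 counts at 12 h after 0.8 µg and 416 after 80 µg, a ratio of normalised counts of 256 (95% exact interval 45.7 to 10161, counting error only) and of 317 (56.6 to 12551). Gmnn fell at 4 h at both doses, by 1.18 and 1.12 on the log2 scale, and was higher than in the control by 3.40 and 3.79 at 24 h. The 4 h calls of Gmnn were lost without replicate 1 of the control (-0.86 and -0.81), without replicate 1 (-0.94) or replicate 2 (-0.91) of the 0.8 µg group and without replicate 3 of the 80 µg group (-0.60).

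The 6 subunits of the Mcm2 to Mcm7 ring, the motor of the helicase, rose together by 12 h, with log2 fold changes from control of 2.36 to 3.60 after 0.8 µg and 2.29 to 3.82 after 80 µg. From 12 h to 24 h no subunit was called at either dose, with log2 differences of -0.65 to 0.71 after 0.8 µg and -0.43 to 0.39 after 80 µg. Of all genes, 17.1% and 16.7% were called higher in this step and 9.48% and 10.5% lower, after 0.8 µg and 80 µg. Mcm7 gave 299.9, 349.9 and 307 normalised counts in the control, 376, 337 and 323 at 4 h after 0.8 µg and 321, 319 and 372 after 80 µg. At 12 h it gave 1667, 1382 and 2157 after 0.8 µg and 1934, 3009.6 and 2479 after 80 µg, and at 24 h 3193, 3082 and 2263 and 3039.7, 3408 and 3325. The control and 4 h libraries overlapped, and every later library was above them. Mcm2 was the only subunit called at 4 h, after 80 µg, at 1.02 ± 0.16 (SE, adjusted p = 1.40e-09), and this call was lost without replicate 2 (0.95) or replicate 3 (0.99) of the control or replicate 3 of the 80 µg group (0.89). The call was also lost with scaling by library totals (0.87) and with all libraries thinned to the size of the smallest (0.95).

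Of the 8 genes that activate the helicase, 5 rose at 12 h after 0.8 µg and 6 after 80 µg, and all 8 at 24 h at both doses. Cdc45, the helicase cofactor, gave 3.09, 1.01 and 4.28 normalised counts in the control, and 2.02, 1.32 and 1.08 at 4 h after 0.8 µg and 2.31, 2.91 and 8.57 after 80 µg. At 12 h it gave 45.1, 45.1 and 58.7 after 0.8 µg and 132, 121 and 104 after 80 µg. At 24 h it gave 202, 148 and 89.8 after 0.8 µg and 193, 199 and 229 after 80 µg. The doses were apart at 12 h and overlapped at 24 h. The 7 counts of the control make its ratio at 24 h 56.2 (95% exact interval 27.0 to 140) after 0.8 µg and 79.6 (38.5 to 199) after 80 µg. Mcm10, which helps to fire the helicase, had 1 count in the control and 258 at 12 h after 0.8 µg, a ratio of 214 (38.1 to 8489), and 701 after 80 µg, a ratio of 534 (95.6 to 21129).

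Cdc7 and Dbf4, the kinase and its activator, were the helicase activators called at 24 h but at 12 h at neither dose. Dbf4 gave 170.1, 147 and 207 normalised counts in the control, 111, 146 and 145 at 4 h after 0.8 µg and 164, 141 and 171 after 80 µg. It stood at 174, 233 and 268 at 12 h after 0.8 µg and at 291, 273 and 274 after 80 µg, and at 464, 445 and 351 and at 458, 495 and 552 at 24 h. After 0.8 µg the 12 h libraries overlapped the control, while both 24 h groups lay above it. Its log2 fold change from control was 0.37 ± 0.17 (SE, adjusted p = 0.0539) at 12 h and 1.27 ± 0.17 (adjusted p = 3.43e-13) at 24 h after 0.8 µg, and 0.68 ± 0.17 (adjusted p = 0.000139) and 1.52 ± 0.16 (adjusted p = 3.91e-19) after 80 µg. Cdc7 fell at 4 h by 1.43 and 1.14 on the log2 scale, after 0.8 µg and 80 µg, and was above the control by 1.14 and 1.52 at 24 h. The call of Cdc7 was lost at 4 h without replicate 2 of the 80 µg group (-0.98) and at 24 h without replicate 1 of the 0.8 µg group (0.98).

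Among the sliding clamp Pcna, the 5 loader subunits Rfc1 to Rfc5 and Dscc1 of the alternative loader, 4 rose at 12 h after 0.8 µg, 5 after 80 µg and all 7 at 24 h. Pcna had already risen at 4 h, from 185, 149 and 157 normalised counts in the control to 443, 378 and 449 after 0.8 µg and 428, 362 and 352 after 80 µg. It was higher than in the control by 1.36 ± 0.14 (SE, adjusted p = 8.91e-22) and 1.21 ± 0.14 (adjusted p = 2.59e-17) on the log2 scale, with no overlap. Rfc1, the large subunit of the loader, gave 380.3, 391 and 417 in the control, and 279.6, 203 and 235 at 4 h after 0.8 µg and 216, 192 and 213 after 80 µg. At 12 h Rfc1 gave 513, 549 and 733 after 0.8 µg and 697, 883 and 779.6 after 80 µg, and at 24 h 1059, 1062 and 828 and 1156, 1097 and 1051. All 4 h libraries were below the control and all later ones above it. Dscc1 had 36 counts in the control and none in the 6 libraries at 4 h, which is at least 4.27-fold lower after 0.8 µg and at least 4.88-fold lower after 80 µg against a floor of 3 counts per library. It was back at 15.7, 14.3 and 23.5 normalised counts at 12 h after 0.8 µg and at 44.8, 16.9 and 22.4 after 80 µg, beside 7.22, 12.2 and 24.3 in the control.

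The 9 polymerase and primase genes all rose by 24 h at both doses, 7 of them by 12 h after 0.8 µg and 9 after 80 µg. Pola1, the catalytic subunit of polymerase alpha, gave 119.6, 84.2 and 77.1 normalised counts in the control, 168, 177 and 169 at 4 h after 0.8 µg and 124, 191 and 165 after 80 µg. At 12 h Pola1 gave 379, 353 and 533 after 0.8 µg and 487, 591 and 592 after 80 µg, and at 24 h 858, 929 and 676 and 894, 943 and 872. Every immunised library was above the control, although the 4 h differences of 0.85 and 0.76 on the log2 scale were under the threshold of 1. Pold2, an accessory subunit of polymerase delta, had the highest log2 fold change at 4 h among members with over 3 counts in a library of each group compared, 2.67 ± 0.22 (SE, adjusted p = 9.37e-33) after 0.8 µg and 2.73 ± 0.22 (adjusted p = 1.23e-34) after 80 µg. It gave 27.8, 35.5 and 30.0 in the control, 221, 208 and 185 at 4 h after 0.8 µg and 186, 232 and 219 after 80 µg, and was at 126, 117 and 139 at 24 h after 0.8 µg and 163, 116 and 147 after 80 µg. Pole and Pole2, the catalytic and second subunits of polymerase epsilon, went opposite ways at 4 h. Pole rose by 2.23 and 2.04 on the log2 scale, while Pole2 fell by 2.02 and 2.26. After 0.8 µg the 24 h call of Pole2 was lost with scaling by library totals (0.88) and with only the 6 libraries compared in the fit (0.99). It was also lost without replicate 1 of the control (0.87) and without replicate 1 (0.91) or replicate 2 (0.94) of the 0.8 µg group.

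Of the single strand binding proteins Rpa1 to Rpa3 and the genes that finish Okazaki fragments, Fen1 and Lig1, 3 rose at 12 h after 0.8 µg and 4 after 80 µg. Lig1, the ligase that seals the fragments, gave 154, 121 and 163 normalised counts in the control, 80.8, 69.8 and 98.2 at 4 h after 0.8 µg and 59.0, 59.1 and 50.6 after 80 µg. At 12 h Lig1 gave 773, 631 and 997 after 0.8 µg and 1122, 1465 and 1386 after 80 µg, and at 24 h 3504, 3729 and 2635 and 3845, 3933 and 3391. The 4 h libraries were all below the control and the later ones all above it. Its log2 fold change from control went from -0.79 ± 0.19 (SE) at 4 h to 4.47 ± 0.16 at 24 h after 0.8 µg, and from -1.35 ± 0.20 to 4.65 ± 0.16 after 80 µg. Rpa1, the large subunit of the single strand binding complex, gave 394, 375 and 454 in the control. It fell to 75.7, 97.5 and 52.9 at 4 h after 0.8 µg and 61.3, 49.4 and 48.9 after 80 µg, by 2.43 and 2.92 on the log2 scale, and gave 690.2, 671 and 595 at 24 h after 0.8 µg and 889.8, 815 and 934 after 80 µg. Rpa1 was the only gene of the 50 with no call above the control at 12 h at either dose and none at 24 h after 0.8 µg.

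All 6 genes of fork protection and chromatin assembly rose at 12 h and 24 h at both doses. Tipin, which binds Timeless at the fork, gave 50.5, 65.9 and 45.7 normalised counts in the control, 101, 125 and 121 at 4 h after 0.8 µg and 140.0, 119 and 141 after 80 µg. At 12 h Tipin gave 605, 601 and 529.5 after 0.8 µg and 572, 545 and 569.6 after 80 µg, and at 24 h 449.8, 461 and 336 and 426, 422 and 467. It was above the control in every immunised library and lower at 24 h than at 12 h by 0.48 and 0.36 on the log2 scale, under the threshold of 1. Clspn, or claspin, an adaptor of the replication checkpoint, gave 14.4, 9.13 and 15.7 in the control, 3.03, 7.90 and 0 at 4 h after 0.8 µg and 2.31, 0.969 and 0.857 after 80 µg. At 12 h Clspn gave 39.2, 23.3 and 70.4 after 0.8 µg and 182, 199.6 and 152 after 80 µg, and at 24 h 661, 534 and 371 and 747, 834 and 751. After 80 µg its 4 counts at 4 h, against 34 in the control, gave a ratio of 0.102 (95% exact interval 0.0263 to 0.286). After 0.8 µg the 4 h call was lost without replicate 3 (-1.02, adjusted p = 0.0558). Both 4 h groups were below the control, both later times above it, and the doses were apart at 12 h and 24 h. Chaf1a, the large subunit of chromatin assembly factor 1, was higher than in the control by 4.04 and 5.00 on the log2 scale at 12 h, after 0.8 µg and 80 µg.

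The G1 to S regulators (the cyclins E Ccne1 and Ccne2, and the factors E2f1 and E2f2) took separate courses. E2f2 gave 87.6, 41.6 and 91.4 normalised counts in the control and fell to 7.07, 5.27 and 3.24 at 4 h after 0.8 µg and 3.47, 2.91 and 0.857 after 80 µg. At 12 h E2f2 was at 16.7, 9.78 and 11.7 after 0.8 µg, still below the control, and at 86.8, 77.0 and 64.2 after 80 µg, within the range of the control. At 24 h it gave 478, 404 and 385 after 0.8 µg and 833, 909 and 791 after 80 µg, all above the control. After 0.8 µg its log2 fold change from control was -3.56 ± 0.39 (SE, adjusted p = 4.39e-17) at 4 h, -2.46 ± 0.30 (adjusted p = 2.63e-15) at 12 h and 2.52 ± 0.21 (adjusted p = 1.31e-30) at 24 h. After 80 µg E2f2 had 7 counts at 4 h against 190 in the control, a ratio of 0.0320 (95% exact interval 0.0127 to 0.0671), and its log2 fold change was 0.07 ± 0.23 (adjusted p = 0.833) at 12 h and 3.51 ± 0.21 (adjusted p = 2.27e-60) at 24 h. Ccne1 also fell at 4 h, by 2.18 and 2.35 on the log2 scale, while Ccne2 rose by 2.07 and 2.48. After 0.8 µg Ccne2 was lower at 12 h than at 4 h (log2 difference -0.999, not called). At 12 h it was called above the control after 80 µg but not after 0.8 µg.

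**Figure D4:**
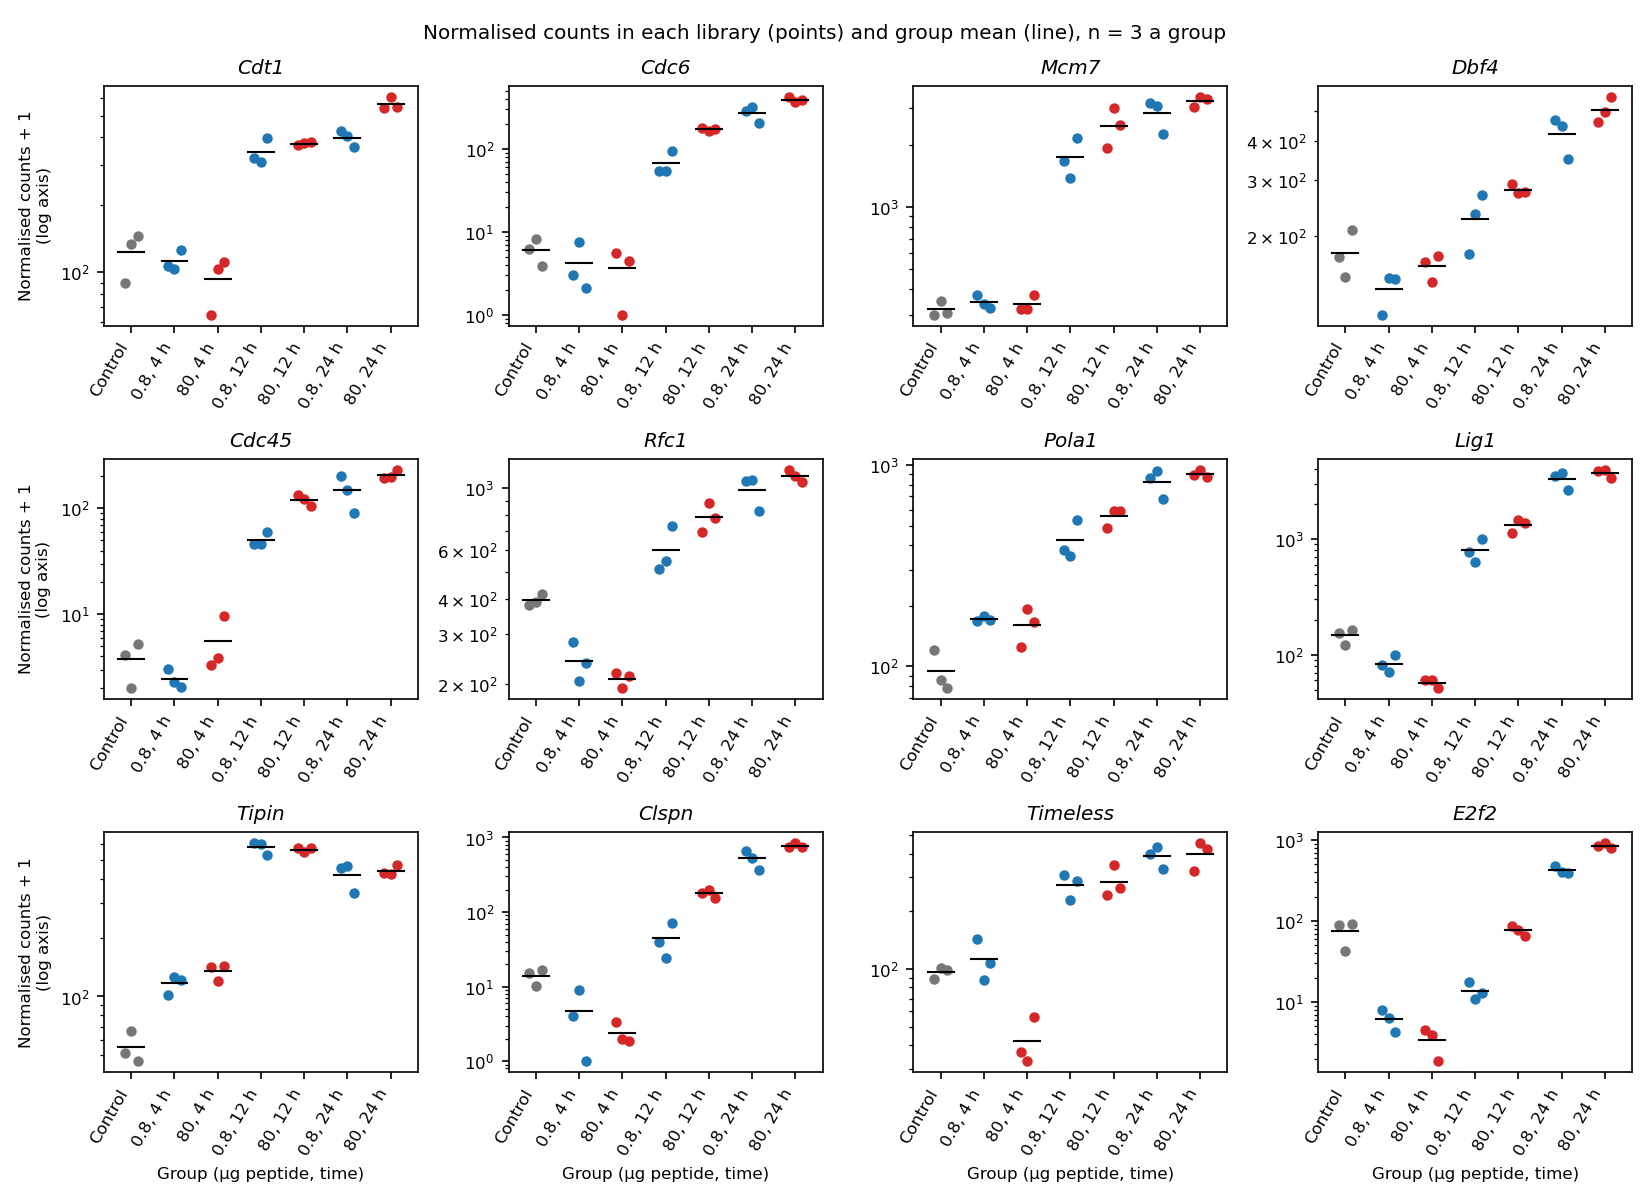
Normalised counts + 1 on log axes for 12 replication genes in each library (points; blue 0.8 µg, red 80 µg, grey control) with the group mean (line). Tipin is above the control from 4 h on, Clspn and E2f2 are below it at 4 h, and the doses do not overlap at 12 h for Cdc6, Dbf4, Cdc45, Lig1, Clspn and E2f2, nor at 4 h for Cdc45, Lig1 and Timeless. Of these 3 genes only Timeless is called between doses at 4 h, and Cdc45 rests there on 4 counts after 0.8 µg and 15 after 80 µg.

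Against the control at 4 h, 6 of the 50 were called higher at both doses (15.2% of all genes tested at both), namely Pcna, Pold2, Pole, Fen1, Tipin and Ccne2. Called lower at both were 8 (20.2% of all genes), namely Gmnn, Cdc7, Dscc1, Pole2, Rpa1, Clspn, Ccne1 and E2f2. Another 11 were called at 1 dose only (13.2% of all genes), of which Timeless alone was also called between the doses at 4 h, and 25 at neither (51.3%). The shares of the 50 called higher and lower at both doses were not above those of all genes. After 0.8 µg the call of Fen1 was lost without replicate 2 of the control (0.76) or replicate 3 of the 0.8 µg group (0.89), and that of Tipin without replicate 1 (0.99) or replicate 3 (0.96) of the control. Both calls were also lost with scaling by library totals (0.966 for Fen1 and 0.906 for Tipin). The same held with all libraries thinned to the size of the smallest (0.997 and 0.988).

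The later steps were then compared within each dose, with the gate moving together with time. From 4 h to 12 h, 44 of the 50 rose after 0.8 µg (12.6% of all genes) and 46 after 80 µg (15.7%), with medians of 2.13 and 2.55 on the log2 scale against 0.05 and 0.06 over all genes. From 12 h to 24 h, 17 rose after 0.8 µg (17.1% of all genes) and 10 after 80 µg (16.7%), and none fell past the thresholds (9.48% and 10.5% of all genes). With scaling by library totals 6 rose after 80 µg (13.6% of all genes). The medians of this step were 0.71 and 0.60, against 0.12 and 0.12 over all genes. The 10 genes of the higher dose (Cdc6, Mcm10, Gins3, Dscc1, Rpa1, Lig1, Clspn, Ccne1, Ccne2 and E2f2) were all among the 17 of the lower dose. For E2f2 the step was 4.98 after 0.8 µg and 3.44 after 80 µg, for Ccne2 4.73 and 2.75, and for Clspn 3.54 and 2.10. Without replicate 3 of the 0.8 µg group at 12 h 44 rose from 4 h to 12 h (12.7% of all genes, median 2.14) and 21 from 12 h to 24 h (17%, median 0.81). Without replicate 3 of that dose at 24 h, 20 rose from 12 h to 24 h (15.4%, median 0.82). Without replicate 2 of the 80 µg group at 12 h, 45 rose from 4 h to 12 h (15.1%, median 2.52) and 10 from 12 h to 24 h (16.3%, median 0.61), 9 of them the same as with it.

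The doses were compared at each time, to ask how the amount of antigen changed the same genes. At 4 h 1 of the 50 was called, lower after 80 µg (5.85% of all genes tested were called and 2.74% called lower). It was Timeless, a fork protection factor that was named here after its values were seen. Timeless gave 142, 86.9 and 106 normalised counts after 0.8 µg, 35.9, 32.0 and 54.9 after 80 µg and 87.6, 100.4 and 97.1 in the control. The 80 µg libraries were below all others, while the 0.8 µg libraries overlapped the control. The log2 difference between doses was -1.42 ± 0.23 (SE, adjusted p = 4.67e-08), and it was 0.06 ± 0.19 and 0.05 ± 0.19 at 12 h and 24 h. Mcm4 differed the other way without passing the threshold of 1, with 79.7, 101 and 101 after 0.8 µg and 200.2, 175 and 176 after 80 µg, a log2 difference of 0.95 ± 0.19 (adjusted p = 2.26e-05), and was called without replicate 3 of the 0.8 µg group (1.00). The median difference over the 50 genes was 0.00189 on the log2 scale, beside -0.02 over all genes.

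At 12 h 7 of the 50 were called higher after 80 µg (1.83% of all genes), and by adjusted p alone 14 were higher (3.67% of all genes). The 7 were Cdc6, Mcm10, Cdc45, Clspn, Ccne2, E2f1 and E2f2, of which 3 are G1 to S regulators, 2 are helicase activators and none is a subunit of the Mcm2 to Mcm7 ring. For Cdc6 the log2 difference was 1.37 ± 0.23 (SE, adjusted p = 3.75e-07), for Cdc45 it was 1.25 ± 0.28 (adjusted p = 0.000535), for Clspn 2.01 ± 0.27 (adjusted p = 2.12e-11) and for E2f2 2.53 ± 0.29 (adjusted p = 7.04e-15). Ccne2 gave 7.84, 8.27 and 4.70 normalised counts after 0.8 µg and 31.1, 45.5 and 57.3 after 80 µg, a 5.64-fold difference (SE 0.42 on the log2 scale, adjusted p = 3.27e-07). With only the 6 libraries compared in the fit, the difference was 2.59-fold for Ccne2 and the log2 difference 1.68 for E2f2, and both stayed called. In all of these genes the libraries of the doses were apart. Without replicate 3 of the 0.8 µg group at 12 h, which had the highest 0.8 µg value of Cdc6, Cdc45 and Clspn but not of Ccne2 or E2f2, the 7 remained called and 10 were called in all (1.83% of all genes), with Chaf1a at 1.20, Chaf1b at 1.00 and Ccne1 at 1.05. Without replicate 2 of the 80 µg group at 12 h, 6 of the 7 were called (1.52% of all genes).

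Mcm10 and E2f1 rested more on single libraries. Mcm10 gave 61.8, 48.9 and 153 normalised counts at 12 h after 0.8 µg and 171, 196 and 240.1 after 80 µg, a log2 difference of 1.19 ± 0.32 (SE, adjusted p = 0.00591). Its call was lost without replicate 1 (1.03) or replicate 2 (0.93) of the 0.8 µg group and without replicate 3 of the 80 µg group (1.02). With only the 6 libraries compared in the fit, the log2 difference was 0.61 for Mcm10 and 0.81 for E2f1, and both calls were lost. E2f1 gave 47.1, 49.6 and 124 after 0.8 µg and 143, 175 and 152 after 80 µg, a log2 difference of 1.08 ± 0.31 (adjusted p = 0.0113), which was lost without replicate 1 (0.87) or replicate 2 (0.87) of the 0.8 µg group and without replicate 2 of the 80 µg group (0.97). In both genes the doses were apart, with replicate 3 the highest of the 0.8 µg libraries. Over the 50 genes, 46 had a log2 difference above 0 (51.1% of all genes), 26 had every 80 µg library above every 0.8 µg library (10.8% of all genes), and the median was 0.40 beside 0.01 over all genes. Without replicate 3 of the 0.8 µg group 48 were above 0 and the median was 0.50, and without replicate 2 of the 80 µg group 46 were and it was 0.38. The 6 ring subunits had a median of 0.17, the 9 polymerase and primase genes 0.34 and the 4 G1 to S regulators 1.79. At this time the summed CD8 T cell marker list was lower after 80 µg and the summed CD4 list higher. Within the CD4 list, Cd4 (mean 559 after 80 µg and 816 after 0.8 µg) and Cd3g (83.5 and 106) were lower after 80 µg, and the others were higher. The part of these lists was not tested.

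At 24 h none of the 50 was called between doses by DESeq2 (1.56% of all genes were called), 10 had an unadjusted p under 0.05 (17% of all genes), and edgeR called 1, E2f2 (1.12% of all genes). By adjusted p alone 3 were higher after 80 µg (3.73% of all genes), namely Cdt1 at 0.50 ± 0.15 (SE, adjusted p = 0.0214), Rpa1 at 0.43 ± 0.14 (adjusted p = 0.0376) and E2f2 at 0.99 ± 0.19 (adjusted p = 1.38e-05) on the log2 scale. In these 3 genes the doses did not overlap. A log2 difference above 0 was found in 49 of the 50 (52.4% of all genes), with a median of 0.26 beside 0.02 over all genes, and 16 had groups that did not overlap (13.5% of all genes). Replicate 3 of the 0.8 µg group, the library with the lowest share of these genes at 24 h, moved this result: without it 38 of the 50 were above 0 and the median was 0.16. With scaling by library totals 44 were above 0, with a median of 0.16 beside -0.09 over all genes. The summed CD8 T cell, B cell and NK marker lists were lower after 80 µg at 24 h and the summed CD4 list higher. Within the CD4 list only Trbc2 was lower after 80 µg (mean 3319, against 3392 after 0.8 µg). The part of these lists was not tested.

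**Figure D5:**
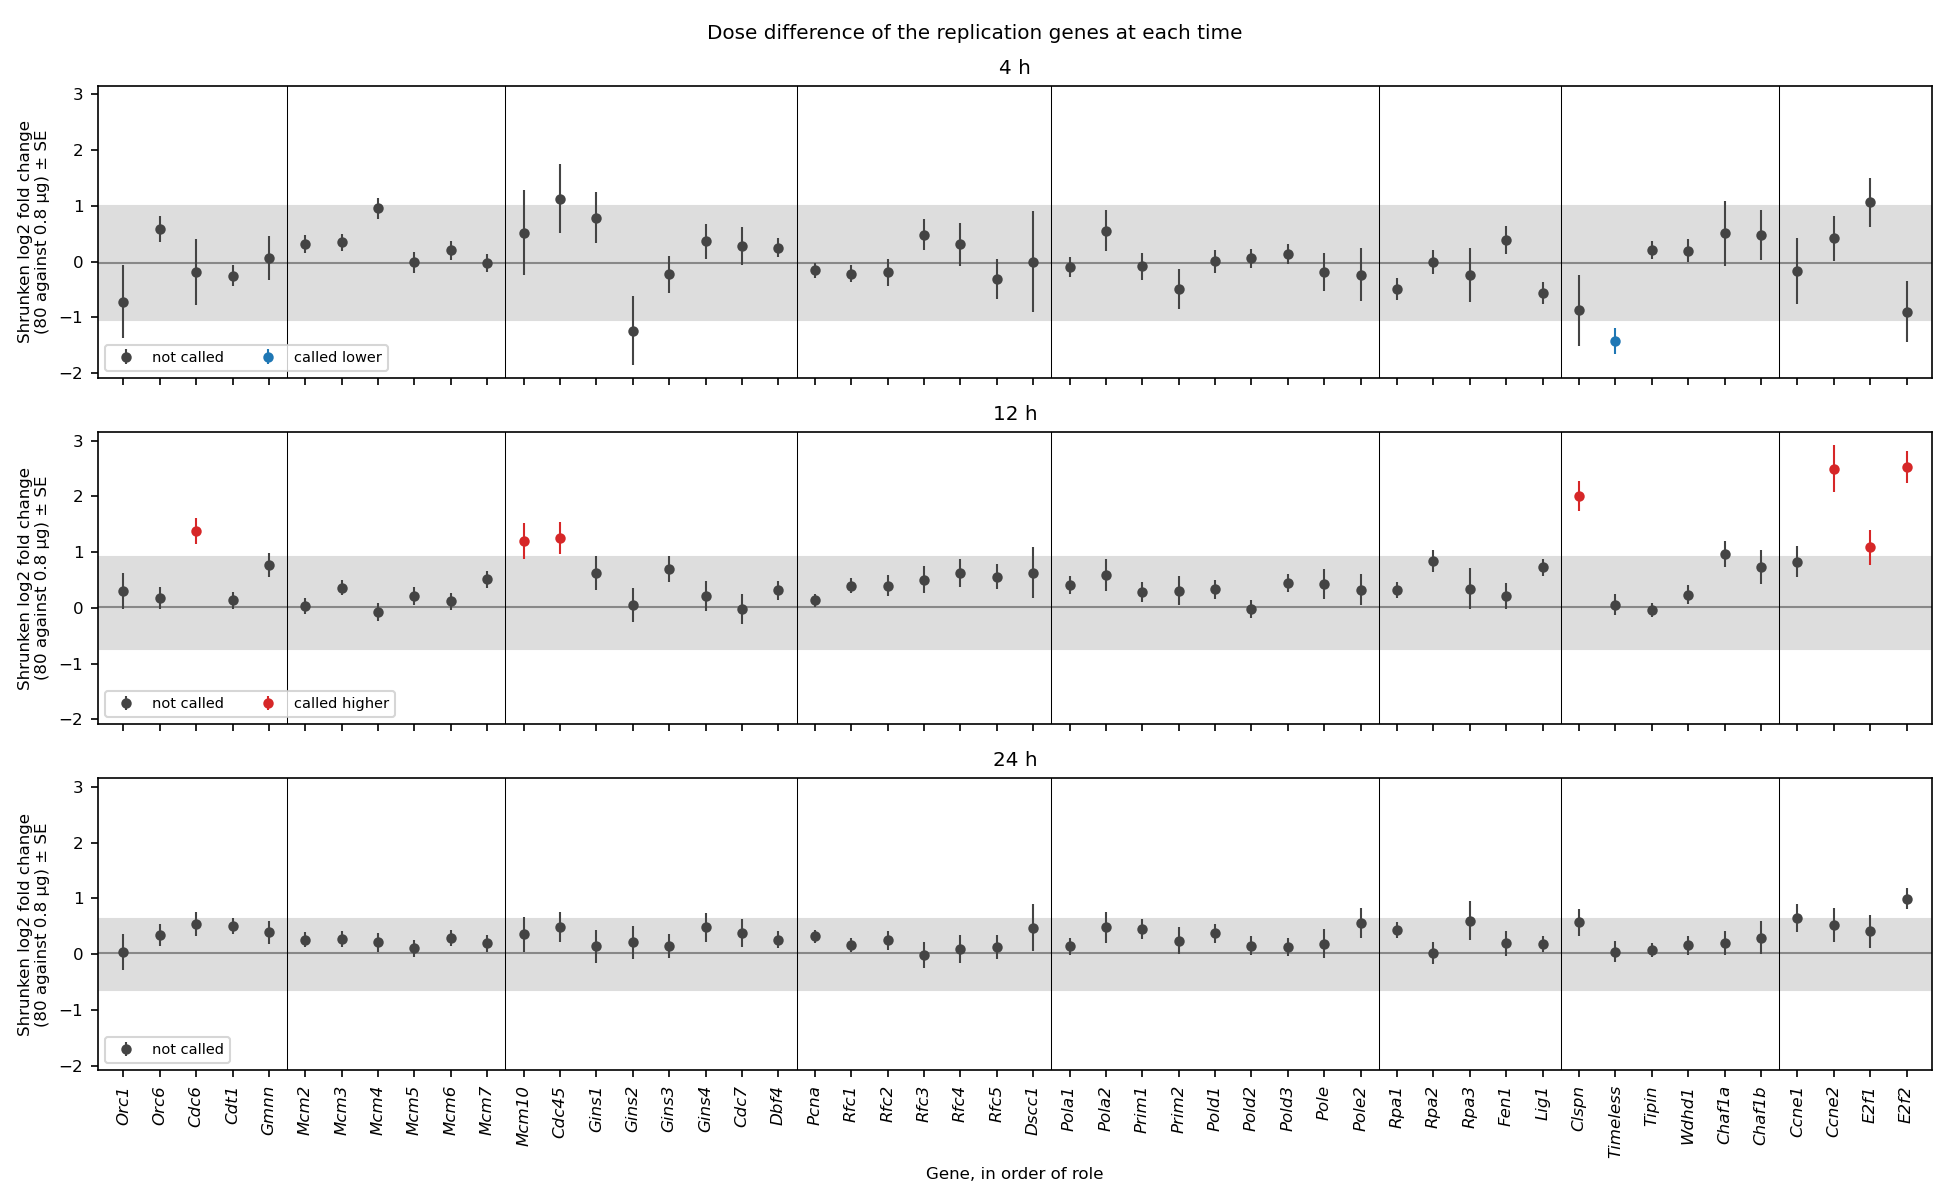
Shrunken log2 fold change of 80 µg against 0.8 µg (points) with its SE (bars) for the 50 replication genes at 4 h, 12 h and 24 h; the grey band spans the 5th to the 95th percentile of all genes and vertical lines part the roles. Timeless is called lower at 4 h, 7 genes are called higher at 12 h, and none at 24 h.

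A likelihood ratio test on the 18 immunised libraries asked whether the difference between doses changed over the 3 times. It passed at an adjusted p under 0.05 for 9 of the 50 genes, where it passed for 10.4% of all genes tested: Cdt1, Mcm4, Rpa1, Rpa2, Lig1, Clspn, Timeless, Ccne2 and E2f2. The log2 difference between doses of Lig1 was -0.56 at 4 h, 0.73 at 12 h and 0.18 at 24 h (adjusted p = 9.19e-05), and that of E2f2 was 2.53 at 12 h and 0.99 at 24 h (adjusted p = 4.26e-08). At 4 h E2f2 had 7 counts after 80 µg and 14 after 0.8 µg, a ratio of 0.437 (95% exact interval 0.149 to 1.16). None of the helicase activators, clamp and loader genes or polymerase and primase genes passed. The number that passed was 5 without the libraries of replicate 1 (4.14% of all genes), 3 without replicate 2 (4.70%) and 12 without replicate 3 (8.62%), and Lig1, Timeless and E2f2 passed each time.

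Genes of related lists that are not among the 50 were measured beside them. The shares of all genes called higher against the control were 17.2% and 17.8% at 12 h and 11.5% and 12.3% at 24 h, after 0.8 µg and 80 µg, and those called lower at 12 h were 20.5% and 20.1%. Of 10 genes of deoxynucleotide metabolism, 8 rose and 1, Samhd1, fell at 12 h at each dose, and 9 rose at 24 h. The medians from control at 12 h and 24 h were 2.26 and 3.41 after 0.8 µg and 3.09 and 3.77 after 80 µg. Of 43 other replication genes, 20 rose and 3 fell at 12 h after 0.8 µg and 26 rose and 2 fell after 80 µg, and 26 and 28 rose at 24 h. Of 22 genes of mitosis, 9 rose at 12 h after 0.8 µg and 16 after 80 µg, while all 22 rose from 12 h to 24 h at each dose (17.1% and 16.7% of all genes), where 17 and 10 of the 50 replication genes did. Between doses at 12 h, 7 of the other replication genes, 1 of deoxynucleotide metabolism and 10 of mitosis were called higher after 80 µg (1.83% of all genes). Among them were Pclaf at 3.51, Rrm2, a subunit of ribonucleotide reductase, at 2.02, and Mki67, which codes for the proliferation marker Ki-67, at 2.57 on the log2 scale.

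The 50 genes lie on 18 chromosomes (GENCODE vM21, GRCm38). An exon of 18 of them overlaps another annotated gene, on the opposite strand for 16 and on the same strand for 3. As the strand setting of the counting is not given in the sources used here, reads of such pairs may not be told apart. They include Lig1 (chr7:13277283-13311433, plus strand) with Zswim9, Timeless (chr10:128232065-128252941, plus) with Gm26847 and Ccne2 (chr4:11191351-11204779, plus) with Ints8 on the opposite strand, Rpa1 (chr11:75298166-75348324, minus) with Gm47300 on the same strand, and Mcm7 (chr5:138164583-138172422, minus), whose span also holds Mir25 and Mir93. E2f2 (chr4:136172394-136196057, plus), Clspn (chr4:126556935-126593903, plus) and Cdc6 (chr11:98907801-98923940, plus) overlap none. Counts of Pcna are uncertain to the extent that its processed pseudogenes share reads with it.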

How the data were processed

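RNA of sorted CD4+ T cells was measured in 21 libraries (7 groups of 3). The raw counts deposited by the authors came from trimmed reads aligned with STAR 2.5.2a to GRCm38 and counted per gene with HTSeq, and the log2 values deposited by the authors are an rlog transformation made with DESeq2, used here only to match names. DESeq2 1.42.0 in R 4.3.3 was run on the counts of genes with at least 10 counts over all samples, with a coefficient per group and fold changes shrunk with a normal prior; p-values were adjusted over all genes tested by the Benjamini-Hochberg method in each of 13 comparisons. A gene was called at an adjusted p under 0.05 and a log2 fold change beyond 1. Normalised counts are counts divided by DESeq2 size factors. The dose by time test was a DESeq2 likelihood ratio test. Ratios with exact intervals replaced fitted folds where every library of a group had 3 counts or fewer. Alternatives included edgeR 4.0.16, other scalings and filters, and leaving out each library. The tests were tried on simulated counts, with changes planted between doses at 12 h that were larger than most dose differences given here. Genes with few counts were given no change, so the trial does not bear on them or on small differences. No pair of libraries in a group agreed within sampling noise. Per the study's methods, cells for sorting came from biological replicate mice, while the labels tie no library to a mouse.

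The 50 genes and the lists were chosen with earlier results of these data known. Values in every library follow a rule: in each role, the gene with the highest mean and, among called genes averaging 20 normalised counts or more, that with the largest difference between doses at 12 h, as well as any gene called against the direction of most of its role; Timeless and others were added after their values were seen. Sequences are from RefSeq (GRCm38.p6).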

Additional observations from a re-analysis of the deposited data

Results flagged for a closer look

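The effect of dose differed between times by the likelihood ratio test in 9 of the 50 replication genes, and the size given for each is the distance between its highest and lowest log2 difference between doses over the 3 times. The distance was 3.42 for E2f2, 2.89 for Clspn and 2.08 for Ccne2, in each of which 12 h was the time of the highest difference. For E2f2 and Clspn the lowest was a fitted value at 4 h, where every 80 µg library had 3 counts or fewer and the ratios of 80 µg to 0.8 µg were 0.437 (95% exact interval 0.149 to 1.16) and 0.388 (0.0874 to 1.39). Between 12 h and 24 h alone, the difference between doses changed by 1.53 for E2f2 and 1.44 for Clspn. Over the 3 times, the distance was 1.47 for Timeless and 1.29 for Lig1, both lowest at 4 h. Mcm4 had a distance of 1.03, with its highest difference at 4 h. Smaller distances were found in Rpa1 (0.92), Rpa2 (0.85) and Cdt1 (0.76). Over 10 alternatives, Lig1, Timeless and E2f2 passed in all 10, Mcm4 and Ccne2 in 9, Rpa1 in 8, Clspn in 7, Rpa2 in 5 and Cdt1 in 4. With the replicate number as a block, Clspn and Rpa2 no longer passed. Groups of 3 libraries were not searched for single values far from the others.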

How the results depend on the processing

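Of 346 calls of the 50 genes over the 13 comparisons, 311 held under every alternative run and none of the 5536 recomputed values changed sign, while 101 of these values no longer passed. The values of single genes against the control and between times were recomputed by choice after the data were seen. With adjusted p alone, without the fold threshold, calls between doses were 3 at 4 h (1 as reported; 12% of all genes), 14 at 12 h (7; 6.27%) and 3 at 24 h (0; 5.93%). Against the control they were 29 at 4 h after 0.8 µg (17), with 12 higher (25.4% of all genes) and 17 lower (29.2%). From 12 h to 24 h they were 33 after 0.8 µg (17), with 30 higher (24.9%) and 3 lower (19.1%), and 30 after 80 µg (10), with 27 higher (24.9%) and 3 lower (19.8%). At 24 h edgeR and TMM size factors each called 1 gene between doses (1.12% and 1.62% of all genes). Scaling by library totals left 6 calls, all higher (13.6% of all genes), from 12 h to 24 h after 80 µg, moved the median of all genes at 4 h against control to -0.27 after 0.8 µg and -0.30 after 80 µg, and moved that of the 50 genes to -0.21 and -0.04. Without the counts of Gm42418, left out by choice after the data were seen, the mean share of the 50 genes was 0.144% in the control, 0.125%, 0.553% and 0.844% at 4 h, 12 h and 24 h after 0.8 µg, and 0.129%, 0.712% and 0.972% after 80 µg. Leaving out 1 library at a time gave 1 to 2 calls between doses at 4 h (4.65 to 5.49% of all genes), 5 to 10 at 12 h (2.17 to 2.9%) and 0 to 1 at 24 h (1.32 to 1.45%; E2f2, without replicate 1 of the 0.8 µg or replicate 3 of the 80 µg group). The dose by time test gave 5 genes without replicate 1 (4.14% of all genes), 3 without replicate 2 (4.7%) and 12 without replicate 3 (8.62%). Whether libraries of the same replicate number were paired is not given in the labels. The 3 correlations of same-numbered libraries in each comparison are too few to decide it. In no comparison were all 3 over 0.1, and between doses at 12 h they were 0.115, -0.0498 and 0.162. With the replicate number as a block, 1, 6 and 0 genes were called between doses at 4 h, 12 h and 24 h (5.2%, 2.73% and 1.52% of all genes). The dose by time test with this block gave 7 genes (8.56%). In the dose comparison at 12 h the block ended the call of Mcm10 (1.17, adjusted p = 0.0944). Calls of Mcm10 and E2f1 at 12 h were each lost in 5 of 16 alternatives, with adjusted p up to 0.244 and 0.145, while those of Timeless at 4 h and of Cdc6, Cdc45, Clspn, Ccne2 and E2f2 at 12 h held in all 16. Depth limits Orc1, Mcm10, Cdc45 and Dscc1 in the control or 4 h groups, and Gins2, Clspn and E2f2 at 4 h after 80 µg.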
